A study of Mus musculus with 12 samples.

Results

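The comparison described here sets mouse embryonic stem cells kept for 5 days in indole-3-acetic acid (IAA, an auxin) against the same cells kept for 5 days in the solvent DMSO. It holds 6 of the 12 libraries of the series, 3 in each group. All rows with values in the authors' deposited table of this comparison were taken, which are 18765 genes out of 19357 with values anywhere in the series. Both groups are of the E14-mESC line with the genotype RACK1-AID/RPS26-Tir1, so the DMSO controls carry the degron on RACK1 and the auxin receptor Tir1 on RPS26 too. Whether the line is 1 clone and whether replicates came from separate cultures is not in the labels. A p-value here therefore reflects only spread between the 3 libraries of a group, which may be technical. As the t statistic is moderated, that spread is partly shared over genes and is not that of the single gene alone. A second pair of groups, 3 libraries each, was sampled 10 days after IAA was withdrawn from cells that had received it for 5 days, with a DMSO control of its own. Poly(A) RNA was sequenced, so protein was not measured.

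RACK1 is a scaffold protein on the head of the small ribosomal subunit, near the mRNA exit channel, where it takes part in the response to stalled and collided ribosomes and binds kinases. Auxin brings the degron tag to Tir1, which marks the tagged protein for destruction. The families followed here work elsewhere in the cell. Semaphorins, ephrins, netrins and Slit proteins are guidance cues with receptors on the surface of neighbouring cells, cadherins, claudins and connexins join cells to each other, and receptors, channels, small GTPases and transcription factors carry signals from the surface to the genome.

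The deposited table gives 1 log2 fold and 1 mean level per gene and no value of a single library, so group levels in CPM, read counts scaled to library depth, were computed from these, and which libraries were high or low cannot be shown. The sign of the folds is not explained in the header, and a positive fold is taken here to mean more RNA with IAA. With like controls at both times, that sign would give a slope of 0.5 when the change in mean level between the 5-day and 10-day tables is regressed on the 5-day fold, and the opposite sign -0.5. Over called genes that slope came to 0.533 ± 0.0114 (SE). Depths of single libraries were not at hand. Their geometric mean was inferred as 23.3M reads, from the commonest mean level, -5.28 log2 CPM in 552 genes, with an assumed offset of 0.5 reads. Of the tagged genes, Rack1 RNA went from 1383 CPM in DMSO to 1228 CPM in IAA (limma adjusted p = 0.00510 in the authors' deposited table), and Rps26 RNA stood at 1204 and 1161 CPM (adjusted p = 0.393 in the authors' deposited table). A gene was called where the limma Benjamini-Hochberg adjusted p of the authors' deposited table was under 0.05. There were 2524 such genes (13.5%) higher with IAA and 2265 (12.1%) lower, 25.5% in either direction.

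Surface, signalling and transcription factor families moved in both directions, with more members higher than lower in most of them. Over 69 families holding 3843 measured genes, 699 genes (18.2%) rose and 297 (7.73%) fell, beside 13.5% and 12.1% of all genes. More members rose than fell in 52 families, more fell in 13, and 4 had equal numbers. Both directions were present in 65. Among 1182 cell-surface genes 195 rose and 58 fell, among 686 channel and transporter genes 116 and 59, and among 486 signalling genes 122 and 48. Of 1084 transcription factor genes 194 rose and 88 fell, and of 413 cytoskeleton and matrix genes 74 and 44. The median log2 fold was 0.15, 0.13, 0.13, 0.11 and 0.08 in these 5 classes, against 0.01 over all genes. Part of the rises lay at low levels. Among the 1945 family genes averaging 1 log2 CPM or more, the level limit, 480 (24.7%) rose and 274 (14.1%) fell, beside 16.6% and 17.9% of all 11782 genes at that level. Cell-surface genes stood highest there, with 123 of 367 higher (33.5%) and 55 lower (14.99%). In 26 of the 69 families the rises came to over 1.5 times those at the level limit, and the counts at that limit stand beside most such families named here.

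**Figure D1:**
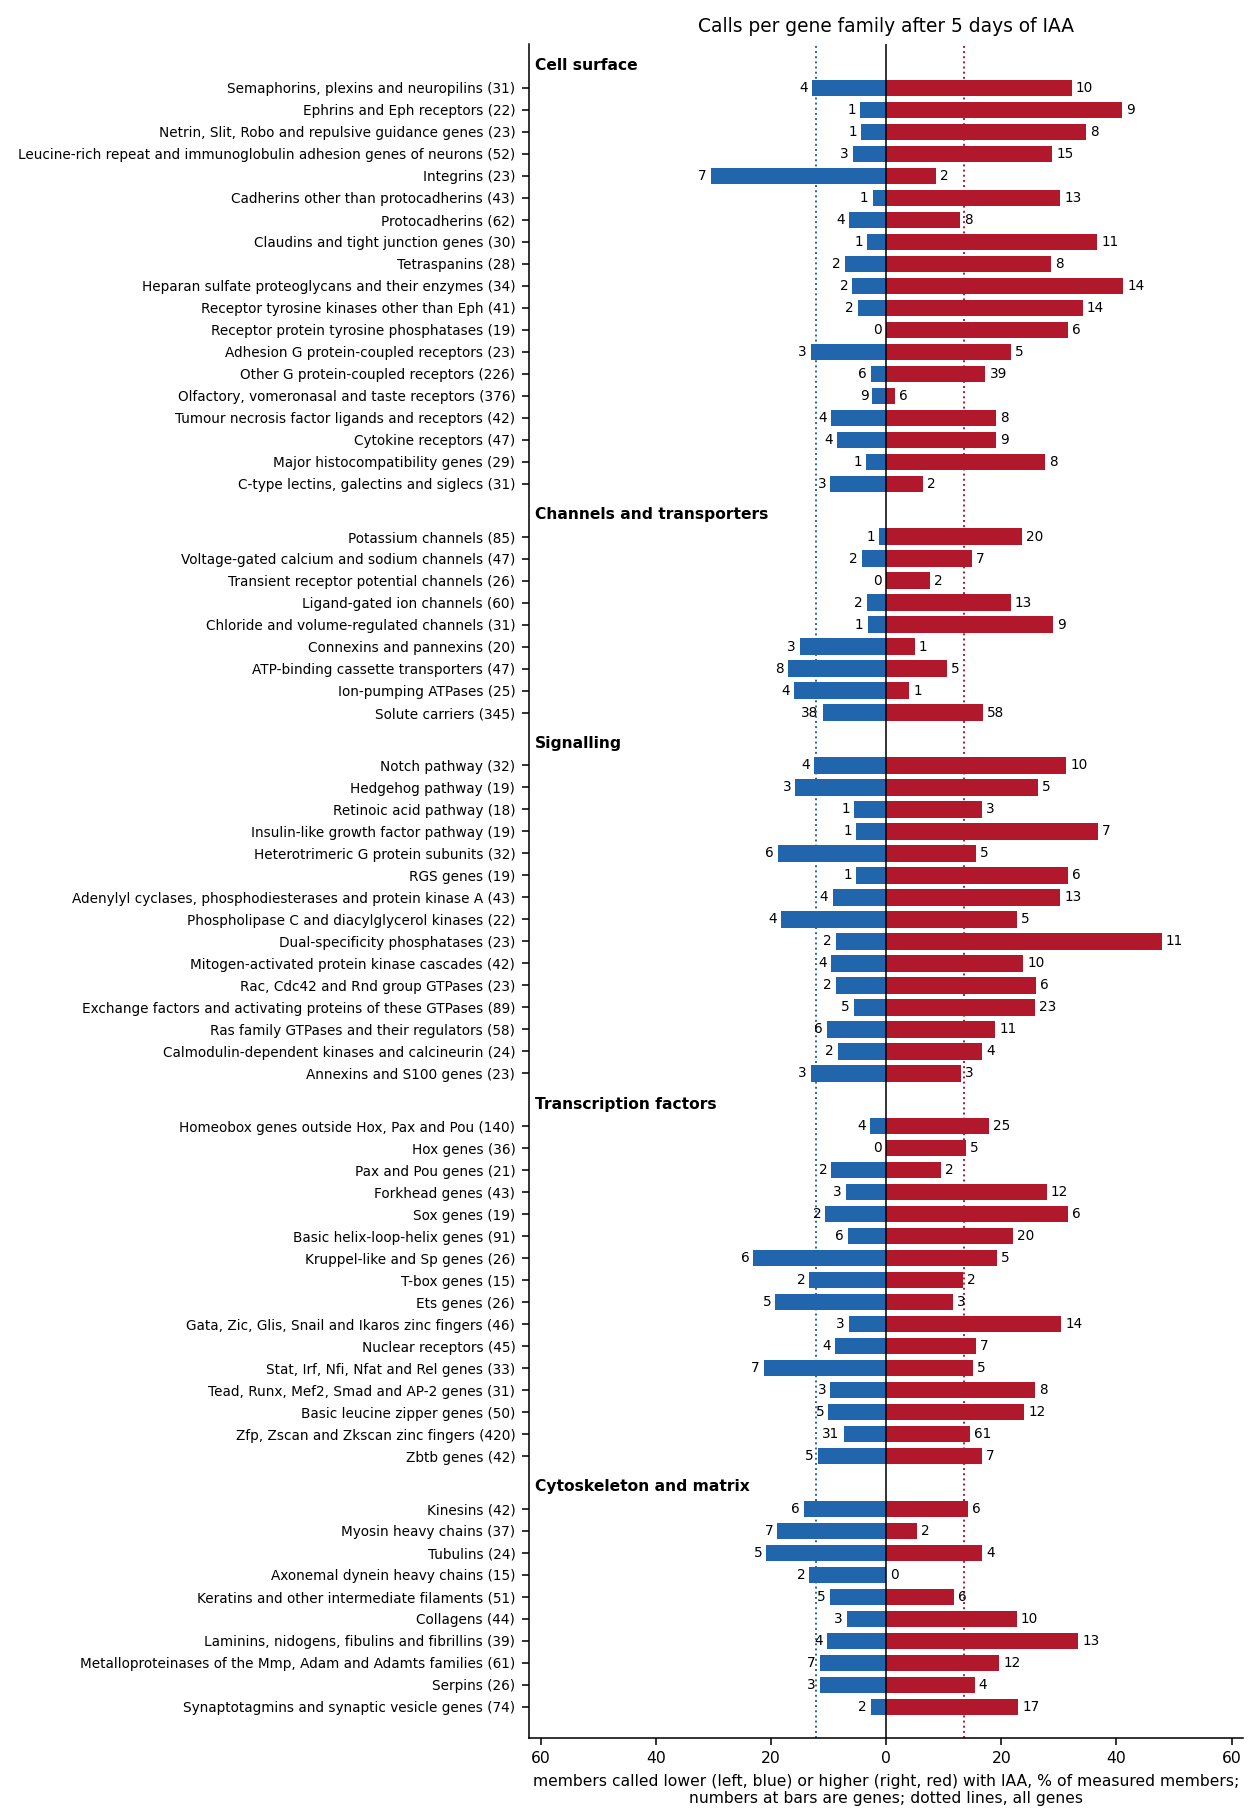
Share of measured members called higher (red, to the right) or lower (blue, to the left) after 5 days of IAA in each of 69 gene families, in percent, with the number of genes at each bar and of measured members in brackets; dotted lines mark 13.5% and 12.1% of all genes. Most red bars reach past their dotted line and most blue bars end short of it, while integrins, connexins and myosins show the opposite order.

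Axon guidance genes rose in larger numbers than they fell. Of 31 semaphorins, plexins and neuropilins 10 rose and 4 fell (median log2 fold 0.21). Sema6a, a transmembrane semaphorin (chromosome 18, 47235598 to 47368870, GRCm38), rose from 4.04 CPM in DMSO to 39.1 CPM in IAA, 9.69-fold (95% interval 6.39 to 14.7), the largest rise of any family member averaging 1 log2 CPM or more. Sema3c, a secreted semaphorin, rose from 1.41 CPM in DMSO to 5.28 CPM in IAA, 3.73-fold (95% interval 2.10 to 6.63). Sema4c rose 2.66-fold (1.99 to 3.55), where brackets without a word hold the 95% interval, while its relatives Sema4a, Sema5b and Sema7a went the other way. Sema4a fell from 16.4 CPM in DMSO to 8.98 CPM in IAA, 1.83-fold lower (95% interval 1.55 to 2.17), Sema5b was 1.68-fold lower (1.36 to 2.06) and the membrane-anchored Sema7a 1.66-fold lower (1.29 to 2.13). By the authors' deposited table, limma gave adjusted p-values from 4.44e-06 for Sema6a to 0.00588 for Sema7a.

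Ephrins and their Eph receptors, which signal both ways at cell contacts, had 9 rises and 1 fall among 22 members (median 0.35). The membrane-spanning ligand gene Efnb2 rose from 17.2 CPM in DMSO to 44.6 CPM in IAA, 2.60-fold (95% interval 2.16 to 3.13). Efna5, a lipid-anchored ligand, rose 2.90-fold (2.01 to 4.18) and the receptor gene Epha1 2.36-fold (1.96 to 2.83). The fall was in the receptor gene Epha4, from 20.6 CPM in DMSO to 15.2 CPM in IAA. Of 23 netrin, Slit, Robo and repulsive guidance genes 8 rose and 1 fell (median 0.39). Unc5b, a netrin receptor, rose from 28.8 CPM in DMSO to 67.4 CPM in IAA, 2.34-fold (95% interval 2.01 to 2.72), and the secreted ligand gene Slit3 2.39-fold (1.96 to 2.91). Ntn1 itself, which encodes netrin-1, fell from 96.5 CPM in DMSO to 58.5 CPM in IAA, 1.65-fold lower (95% interval 1.46 to 1.87). Adjusted p by limma, as the authors' deposited table lists it, ran from 3.92e-06 for Unc5b to 0.0159 for Epha4.

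Among 52 leucine-rich repeat and immunoglobulin adhesion genes best known from neurons, 15 rose and 3 fell (median 0.35). Slitrk5 rose 3.25-fold (2.24 to 4.72), Lrrn4 3.16-fold (2.32 to 4.31) and Amigo2 2.64-fold (1.88 to 3.72), as computed from the same table. Ncam1, the neural cell adhesion molecule, fell from 29.02 CPM in DMSO to 13.6 CPM in IAA, 2.14-fold lower (95% interval 1.76 to 2.60). Levels and folds are computed from the authors' deposited table, where its limma adjusted p was 5.74e-05. Each of these 4 guidance and adhesion groups held calls in both directions.

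Integrins, the receptors that tie cells to matrix, were a family with more falls than rises, 7 against 2 among 23 measured (median -0.26). Itga9 fell from 41.3 CPM in DMSO to 25.3 CPM in IAA, 1.63-fold lower (95% interval 1.45 to 1.83), and Itgb7 was 1.63-fold lower (1.31 to 2.02). Itgb3, at a low level, fell from 2.92 CPM in DMSO to 1.66 CPM in IAA. The rises were in Itga3, a laminin receptor subunit, 1.45-fold (1.24 to 1.70), and Itgb5, 1.20-fold (1.07 to 1.33). Limma's adjusted p in the authors' deposited table ranged from 3.65e-05 for Itga9 to 0.0291 for Itgb3. Of 43 cadherins outside the protocadherins 13 rose and 1 fell (7 and 1 at the level limit). Fat1, a giant cadherin of planar polarity and growth control, rose from 188 CPM in DMSO to 387 CPM in IAA, 2.06-fold (95% interval 1.76 to 2.41), and Dchs1, from the same branch, 2.99-fold (1.96 to 4.54).

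Protocadherins had 8 rises and 4 falls among 62, but at an average of 1 log2 CPM or more only Pcdh1 rose and 3 members fell. Pcdh1 rose from 4.91 CPM in DMSO to 25.03 CPM in IAA, 5.10-fold (95% interval 3.38 to 7.68). The falls at that level, Pcdhga12, Pcdhgb8 and Pcdhgb7, belong to the gamma cluster, whose genes share their last exons and overlap in the annotation, so reads may be split between them. Pcdhgb7 was 2.03-fold lower (1.53 to 2.68), computed from the authors' deposited table. Heparan sulfate proteoglycans and the enzymes that build and sulfate their chains had 14 rises and 2 falls among 34 (median 0.25). The sulfotransferase gene Hs6st2 rose 3.45-fold (2.56 to 4.66), and the glypican genes Gpc4 and Gpc1 1.69-fold (1.41 to 2.02) and 1.65-fold (1.48 to 1.84). Tetraspanins, which organise membrane domains, had 8 rises and 2 falls (5 and 2 at the level limit) among 28, with Tspan7 rising 2.38-fold (2.02 to 2.82) and Cd9 falling from 139 CPM in DMSO to 104 CPM in IAA.

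**Figure D2:**
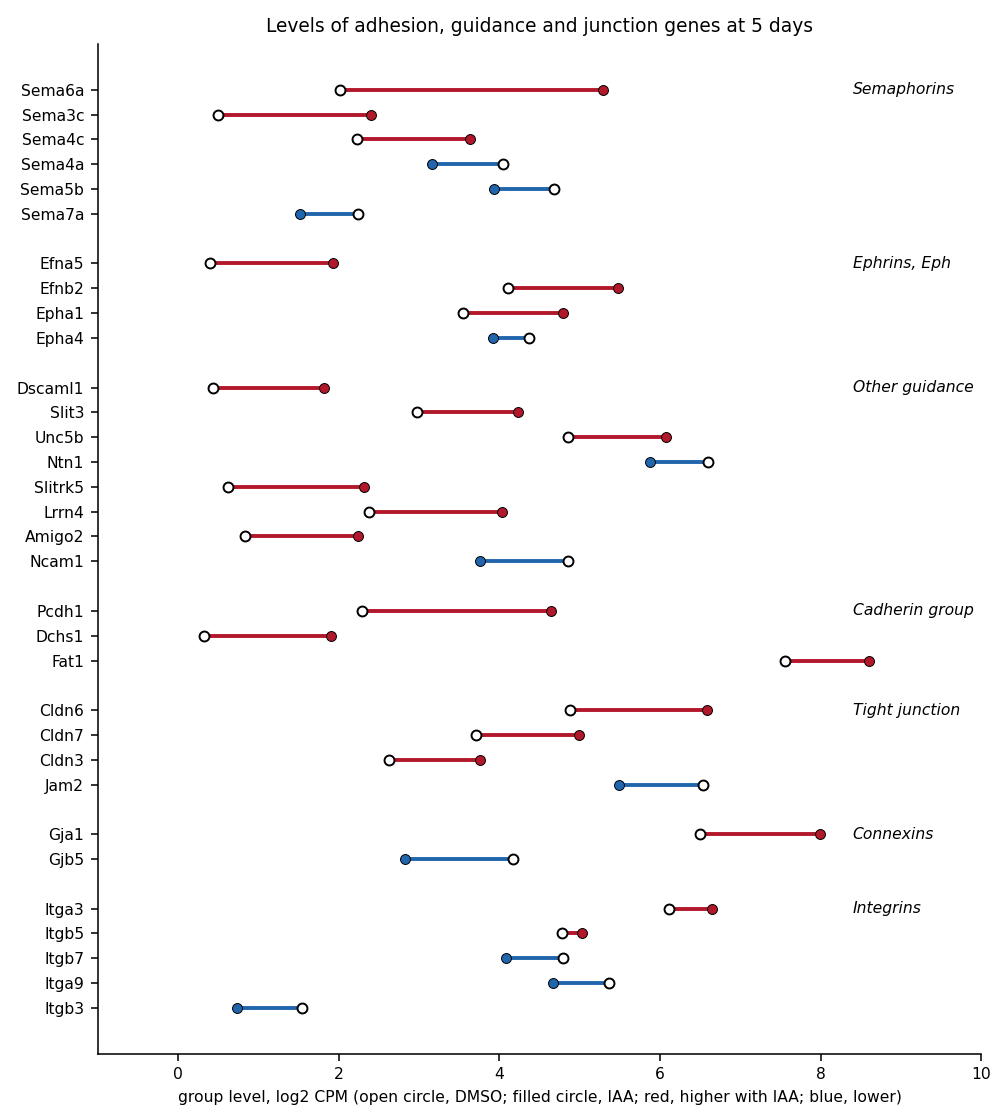
Group levels in DMSO (open circles) and IAA (filled circles) of 32 adhesion, guidance and junction genes, in log2 CPM, computed from each gene's mean and fold; red lines are genes higher with IAA and blue lines genes lower. Sema6a has the longest line, the 3 claudins move right, and Gja1 and Gjb5 move apart.

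Cell junction genes split by type. Claudins, which seal tight junctions, and their partners had 11 rises and 1 fall among 30 members (median 0.31), and connexins, which form gap junction channels, had 1 rise and 3 falls among 20. Promoters are in the RefSeq table (GRCm38.p6) for 10 of the 16 called genes of both families. The 250 bases before the RefSeq start of 4 of them are shown, from 3 genes that rose and 1 that fell. RefSeq starts can differ from those of GENCODE, which gave the gene coordinates in the text. The windows of Cldn6 and Gjb5 overlap their GENCODE genes. All 4 hold a match to a motif named next, so they do not stand for all 14 junction windows. Capitals mark exact matches, on either strand, to a cyclic AMP response element (TGACGTCA), an AP-1 site (TGANTCA) or a TATA box (TATAAA). Cldn6 lies at chr17:23679115-23679364 (plus strand), Cldn7, its second listed start, at chr11:69965171-69965420 (plus), Gja1 at chr10:56377050-56377299 (plus) and Gjb5 at chr4:127358165-127358414 (minus).
Cldn6: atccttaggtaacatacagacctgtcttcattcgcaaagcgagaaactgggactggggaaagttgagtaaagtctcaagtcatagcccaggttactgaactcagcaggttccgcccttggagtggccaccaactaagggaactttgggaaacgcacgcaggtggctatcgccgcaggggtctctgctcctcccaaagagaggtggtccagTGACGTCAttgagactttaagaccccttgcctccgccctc
Cldn7: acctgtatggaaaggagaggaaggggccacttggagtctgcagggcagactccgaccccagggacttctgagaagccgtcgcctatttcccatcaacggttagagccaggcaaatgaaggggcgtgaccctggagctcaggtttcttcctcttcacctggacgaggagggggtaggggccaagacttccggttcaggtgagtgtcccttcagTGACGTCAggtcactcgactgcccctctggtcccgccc
Gja1: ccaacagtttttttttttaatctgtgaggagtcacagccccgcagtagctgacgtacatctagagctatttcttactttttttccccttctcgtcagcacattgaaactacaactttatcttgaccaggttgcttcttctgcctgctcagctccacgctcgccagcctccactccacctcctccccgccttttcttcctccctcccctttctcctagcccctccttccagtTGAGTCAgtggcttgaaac
Gjb5: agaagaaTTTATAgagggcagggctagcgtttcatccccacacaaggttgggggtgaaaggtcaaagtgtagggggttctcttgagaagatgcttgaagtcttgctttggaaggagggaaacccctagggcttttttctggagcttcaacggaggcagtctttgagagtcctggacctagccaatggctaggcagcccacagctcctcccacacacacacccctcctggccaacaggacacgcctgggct

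The cyclic AMP response element stood at base 211 of the Cldn6 window and base 213 of the Cldn7 window, and no other of the 14 junction windows held it. In Cldn6 it lies before the RefSeq start but after the GENCODE start, so inside the gene as GENCODE draws it. A match to the TATA box letters was not particular to Gjb5, where it stood at base 8. Each listed window of Marveld2, which rose and is not shown, held such a match too, at base 1 or base 28. All of these read TTTATA, so on the opposite strand, and lie at the end of the window away from the start. Over all 32851 windows of the same length 1.55% hold the response element, 6.75% an AP-1 site and 12.4% a TATA box. The response element was in 2.06% of windows of genes that rose, 2.68% of those that fell and 2.26% of those without a call. In the same order an AP-1 site was in 4.79%, 5.27% and 5.25%, and a TATA box in 6.39%, 7.15% and 8.53%. A match is a string of letters and was not tested for binding.

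Cldn6, a claudin of early epithelia and stem cells (chromosome 17, 23679249 to 23682446, GRCm38), rose from 29.4 CPM in DMSO to 96.1 CPM in IAA, 3.27-fold (95% interval 2.91 to 3.66). Cldn7 rose from 13.1 CPM in DMSO to 31.7 CPM in IAA, 2.41-fold (95% interval 1.99 to 2.92), and Cldn3 2.20-fold (1.82 to 2.65). The fall was in Jam2, a junctional adhesion molecule, from 92.7 CPM in DMSO to 44.8 CPM in IAA, 2.07-fold lower (95% interval 1.85 to 2.32). Among connexins Gja1, which encodes connexin 43, rose from 90.2 CPM in DMSO to 255 CPM in IAA, 2.83-fold (95% interval 2.39 to 3.35). Gjb5 on chromosome 4 (127354809 to 127358181) fell from 17.96 CPM in DMSO to 7.11 CPM in IAA, 2.52-fold lower (95% interval 2.01 to 3.16). These levels and folds are computed from the authors' deposited table, in which limma adjusted p ran from 5.28e-08 for Cldn6 to 3.93e-05 for Gjb5.

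Receptor tyrosine kinases outside the Eph group had 14 rises and 2 falls among 41 (median 0.36). Egfr, the epidermal growth factor receptor, rose from 3.11 CPM in DMSO to 8.11 CPM in IAA, 2.61-fold (95% interval 1.88 to 3.63). Ddr1, a collagen receptor, rose from 47.9 CPM in DMSO to 116 CPM in IAA, 2.42-fold (95% interval 2.10 to 2.79), and Ror1, a Wnt co-receptor, 1.82-fold (1.30 to 2.55). Kit, the receptor of stem cell factor (chromosome 5, 75574916 to 75656722, GRCm38), fell from 114 CPM in DMSO to 56.1 CPM in IAA, 2.03-fold lower (95% interval 1.76 to 2.35). The limma adjusted p-values of the 4 in the authors' deposited table were 5.49e-04, 1.71e-06, 0.0119 and 1.07e-05. Gfra1, which binds the ligand GDNF for the kinase Ret and is in none of the families, rose from 3.29 CPM in DMSO to 17.1 CPM in IAA, 5.18-fold (95% interval 3.54 to 7.59). Receptor tyrosine phosphatases had 6 rises and 0 falls among 19, Ptprn rising 1.77-fold (1.51 to 2.08) and Ptprg 1.47-fold (1.31 to 1.66).

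G protein-coupled receptors outside the adhesion and sensory groups had 39 rises and 6 falls among 226 (median 0.28), of which only 36 averaged 1 log2 CPM or more, 12 of them higher and 5 lower. A pair of receptors for lysophosphatidic acid were among the largest rises. Lpar6 rose from 2.96 CPM in DMSO to 12.9 CPM in IAA, 4.36-fold (95% interval 2.84 to 6.69) and Lpar4 from 2.26 CPM in DMSO to 6.64 CPM in IAA, 2.94-fold (95% interval 2.08 to 4.15). Enpp2, whose secreted product makes that lipid, rose 5.39-fold (3.63 to 8.02). Gprc5c, an orphan receptor gene, rose 3.16-fold (2.16 to 4.64), and Gabbr1, a subunit of the metabotropic GABA receptor, fell from 30.6 CPM in DMSO to 19.6 CPM in IAA. Adhesion receptors of this class had 5 rises and 3 falls among 23. Adgrl2, a latrophilin, rose from 35.4 CPM in DMSO to 93.4 CPM in IAA, 2.64-fold (95% interval 2.18 to 3.20), and Adgrd1 fell from 10.9 CPM in DMSO to 4.40 CPM in IAA, 2.49-fold lower (95% interval 1.89 to 3.28). For these genes the authors' deposited table lists limma adjusted p-values from 8.27e-06 for Adgrl2 to 0.00186 for Gabbr1.

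Olfactory, vomeronasal and taste receptor genes, 376 with values, had 6 rises and 9 falls, 1.60% and 2.39% of the family against 13.5% and 12.1% of all genes. Most had few reads, with a median mean level of -3.13 log2 CPM. At an average of 1 log2 CPM or more stood 63, with 3 rises and 9 falls, beside 16.6% and 17.9% of all genes at that level. Of these, Olfr1388 went from 417 CPM in DMSO to 497 CPM in IAA. Olfr769 went from 35.2 CPM in DMSO to 19.5 CPM in IAA, all levels computed from the authors' deposited table.

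Cytokine and immune receptor families changed in both directions. Of 47 cytokine receptors 9 rose and 4 fell (5 and 4 at the level limit). Cntfr, the receptor that binds ciliary neurotrophic factor, rose from 11.6 CPM in DMSO to 26.2 CPM in IAA, 2.26-fold (95% interval 1.62 to 3.17). The signalling receptors Lifr, for leukaemia inhibitory factor, and Il6st, which encodes gp130, fell. Lifr went from 26.6 CPM in DMSO to 18.7 CPM in IAA, 1.43-fold lower (95% interval 1.26 to 1.62) and Il6st from 106 CPM in DMSO to 83.4 CPM in IAA, 1.27-fold lower (95% interval 1.16 to 1.39). Of 42 tumour necrosis factor ligands and receptors 8 rose and 4 fell, Ltbr rising 2.22-fold (1.65 to 2.98) and the ligand gene Tnfsf11 2.03-fold (1.54 to 2.67). Of the falls 3, Tnfsf12, Tnfsf13 and the fused transcript Tnfsfm13, lie at 1 place on chromosome 11 and may share reads. Tnfsf12 was 1.62-fold lower (1.25 to 2.12), with limma adjusted p = 0.0106 in the authors' deposited table.

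Major histocompatibility genes had 8 rises and 1 fall (5 and 1 at the level limit) among 29 (median 0.41). The class I genes H2-Q7 and H2-Q4 rose 2.85-fold (2.18 to 3.74) and 2.20-fold (1.79 to 2.71), and H2-D1 from 19.1 CPM in DMSO to 31.9 CPM in IAA, 1.67-fold (95% interval 1.43 to 1.95). The H2-Q genes are near-identical neighbours on chromosome 17, so their reads are uncertain. H2-M5 fell from 16.6 CPM in DMSO to 7.81 CPM in IAA, 2.12-fold lower (95% interval 1.76 to 2.56). Lectins had 2 rises and 3 falls (1 and 3 at the level limit) among 31, and Lgals3, a galectin, fell from 31.97 CPM in DMSO to 11.2 CPM in IAA, 2.86-fold lower (95% interval 2.43 to 3.37). Psmb8, a subunit of the immunoproteasome, and Irf1, an interferon-induced transcription factor, rose 5.26-fold (3.69 to 7.49) and 2.03-fold (1.80 to 2.30). By the authors' deposited table, limma gave adjusted p-values from 1.32e-06 for Lgals3 to 1.91e-04 for H2-D1.

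Ion channel families had more rises than falls, and pumps and ATP-binding cassette transporters more falls than rises. Of 85 potassium channel genes 20 rose and 1 fell (median 0.48), 6 and 1 of them at an average of 1 log2 CPM or more. Kcnj3, a G protein-gated inward rectifier, rose from 3.34 CPM in DMSO to 17.3 CPM in IAA, 5.19-fold (95% interval 3.65 to 7.38). Kcnk1, a leak channel, rose from 21.8 CPM in DMSO to 46.9 CPM in IAA, 2.15-fold (95% interval 1.88 to 2.46). The fall was in the inward rectifier gene Kcnj12, from 6.74 CPM in DMSO to 3.98 CPM in IAA. Of 47 voltage-gated calcium and sodium channel genes 7 rose and 2 fell. Cacna1g, a T-type calcium channel, rose from 3.93 CPM in DMSO to 13.3 CPM in IAA, 3.39-fold (95% interval 2.74 to 4.20), and the falls were in Catsperz and Catsperd, of the sperm calcium channel. Catsperz was 2.37-fold lower (1.86 to 3.03). Adjusted p by limma, as the authors' deposited table lists it, ran from 3.05e-06 for Cacna1g to 0.0453 for Catsperd.

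Of 60 ligand-gated channel genes 13 rose and 2 fell (3 and 2 at the level limit). The GABA receptor subunit genes Gabra5 and Gabrg3, neighbours on chromosome 7, both rose, though Gabra5 went from 0.128 CPM in DMSO to 2.04 CPM in IAA and Gabrg3 from 0.103 CPM in DMSO to 0.876 CPM in IAA, levels of few reads. Lrrc8c, of the volume-regulated anion channel, rose 2.02-fold (1.71 to 2.39), in a group of 31 chloride and volume-regulated channel genes with 9 rises and 1 fall (5 and 1 at the level limit). Ion-pumping ATPases had 1 rise and 4 falls among 25, with the calcium pump gene Atp2a3 1.79-fold lower (1.37 to 2.34). ATP-binding cassette transporters had 5 rises and 8 falls among 47. Abca1, which exports cholesterol, fell from 21.9 CPM in DMSO to 12.8 CPM in IAA, 1.71-fold lower (95% interval 1.49 to 1.97). The drug exporter copies Abcb1a and Abcb1b went apart, Abcb1a 1.75-fold lower (1.52 to 2.01) and Abcb1b higher 1.35-fold (1.14 to 1.60), all computed from the authors' deposited table. Their sequences are alike, so reads may be shared.

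Solute carriers, the largest transporter family, had 58 rises and 38 falls among 345 (median 0.09), and 43 and 36 at an average of 1 log2 CPM or more. Slc40a1, the iron exporter ferroportin, rose from 1.22 CPM in DMSO to 5.25 CPM in IAA, 4.29-fold (95% interval 2.94 to 6.28). In the other direction Slc11a1, a metal transporter of phagocytes, fell from 4.25 CPM in DMSO to 1.02 CPM in IAA, 4.19-fold lower (95% interval 2.49 to 7.05), and Slc13a5, a citrate carrier, was 2.73-fold lower (1.81 to 4.13). The 3 had limma adjusted p-values from 6.82e-05 for Slc40a1 to 0.00185 for Slc13a5 in the authors' deposited table.

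Signalling pathways outside the receptor families were also mixed. Notch pathway genes had 10 rises and 4 falls among 32 (median 0.29). The receptor gene Notch3 (chromosome 17, 32120820 to 32166852, GRCm38) rose from 121 CPM in DMSO to 267 CPM in IAA, 2.20-fold (95% interval 1.97 to 2.46), and Dll3, a ligand-like inhibitor, 2.41-fold (2.06 to 2.82). The receptor gene Notch4 fell from 27.7 CPM in DMSO to 15.2 CPM in IAA, 1.82-fold lower (95% interval 1.49 to 2.24), Rbpj, the DNA-binding partner of all Notch receptors, was 1.33-fold lower (1.23 to 1.44), and the target gene Hes1 1.29-fold lower (1.14 to 1.47). Hedgehog pathway genes had 5 rises and 3 falls among 19. Gas1, a Hedgehog co-receptor, rose 2.63-fold (1.83 to 3.76), and Smo, the transducer, from 53.9 CPM in DMSO to 82.1 CPM in IAA, 1.52-fold (95% interval 1.36 to 1.70). Gli2 and Gli3, the transcription factors of the pathway, went apart, Gli2 1.61-fold lower (1.47 to 1.76) and Gli3 higher 1.51-fold (1.30 to 1.76). Limma's adjusted p in the authors' deposited table ranged from 7.28e-07 for Notch3 to 0.00633 for Hes1.

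Insulin-like growth factor genes had 7 rises and 1 fall among 19. The receptor substrate genes Irs1 and Irs2 rose 2.95-fold (2.14 to 4.05) and 2.18-fold (1.85 to 2.56), and Igfbp3, a secreted binding protein, 1.99-fold (1.63 to 2.44). Heterotrimeric G protein subunits had 5 rises and 6 falls among 32. Gna14 and Gna15, alpha subunits that act through phospholipase C, fell, Gna14 from 11.4 CPM in DMSO to 4.02 CPM in IAA, 2.83-fold lower (95% interval 2.27 to 3.53) and Gna15 from 11.8 CPM in DMSO to 6.82 CPM in IAA, 1.72-fold lower (95% interval 1.34 to 2.21). RGS genes, which switch such subunits off, had 6 rises and 1 fall (2 and 0 at the level limit) among 19, Rgs16 rising 2.25-fold (1.55 to 3.25). Cyclic nucleotide enzymes had 13 rises and 4 falls (7 and 4 at the level limit) among 43, with the phosphodiesterase gene Pde5a 2.74-fold (2.07 to 3.64) and the cyclase genes Adcy7 and Adcy6 2.21-fold (1.71 to 2.85) and 1.91-fold (1.56 to 2.32) higher. Phospholipase C and diacylglycerol kinase genes had 5 rises and 4 falls among 22, a balance that turned to 3 rises and 4 falls at an average of 1 log2 CPM or more and to 5 and 6 with the trends on transcript length and GC removed. Folds in this paragraph are computed from the authors' deposited table, with limma adjusted p from 1.23e-05 for Irs2 to 0.00380 for Gna15.

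Dual-specificity phosphatases, which remove phosphates from mitogen-activated protein kinases, had 11 rises and 2 falls among 23, a share of rises of 47.8% against 13.5% of all genes (median 0.52), and 8 and 2 among the 17 at the level limit. Dusp10 rose from 1.71 CPM in DMSO to 6.38 CPM in IAA, 3.72-fold (95% interval 2.34 to 5.90). Dusp4 went from 16.7 CPM in DMSO to 31.6 CPM in IAA, 1.89-fold (95% interval 1.67 to 2.15), and Dusp6, which acts on ERK, from 38.2 CPM in DMSO to 59.1 CPM in IAA, 1.55-fold (95% interval 1.37 to 1.75). Dusp9 and Dusp27 fell, Dusp9 by little, from 149 CPM in DMSO to 128 CPM in IAA, 1.16-fold lower (95% interval 1.07 to 1.25). In the kinase cascades themselves 10 genes rose and 4 fell among 42. Map3k20, the kinase that senses collided ribosomes, rose from 3.53 CPM in DMSO to 7.67 CPM in IAA, 2.17-fold (95% interval 1.66 to 2.84), and Map3k15 1.94-fold (1.69 to 2.24), while Map2k1, a kinase directly above ERK, was 1.21-fold lower (1.10 to 1.33). For these genes the authors' deposited table lists limma adjusted p-values from 8.27e-06 for Dusp4 to 0.00811 for Dusp9.

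Small GTPases of the Rac, Cdc42 and Rnd group, which control actin, had 6 rises and 2 falls among 23, and their exchange factors and activating proteins 23 and 5 among 89. Rhob rose from 30.9 CPM in DMSO to 58.5 CPM in IAA, 1.89-fold (95% interval 1.71 to 2.10), Rnd3, which loosens actin stress fibres, 2.12-fold (1.75 to 2.57) and Rhod 2.27-fold (1.76 to 2.93), whereas Rhoa was 1.16-fold lower (1.09 to 1.24). Arhgef40 and Arhgef5 rose 2.08-fold (1.70 to 2.56) and 2.03-fold (1.54 to 2.66), and Arhgef10l fell from 42.6 CPM in DMSO to 24.6 CPM in IAA, 1.73-fold lower (95% interval 1.51 to 1.98). Ras family genes and regulators had 11 rises and 6 falls among 58. Rasd2 and Rem2 rose 2.29-fold (1.94 to 2.70) and 2.61-fold (1.83 to 3.72). Mras, a close relative of the classical Ras genes (chromosome 9, 99385420 to 99437381, GRCm38), fell from 42.2 CPM in DMSO to 14.6 CPM in IAA, 2.89-fold lower (95% interval 2.54 to 3.27), with the smallest standard error among the 15 largest falls. Its log2 fold was -1.53 ± 0.08 (SE) in the authors' deposited table, at an adjusted p of 1.80e-07 by limma.

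**Figure D3:**
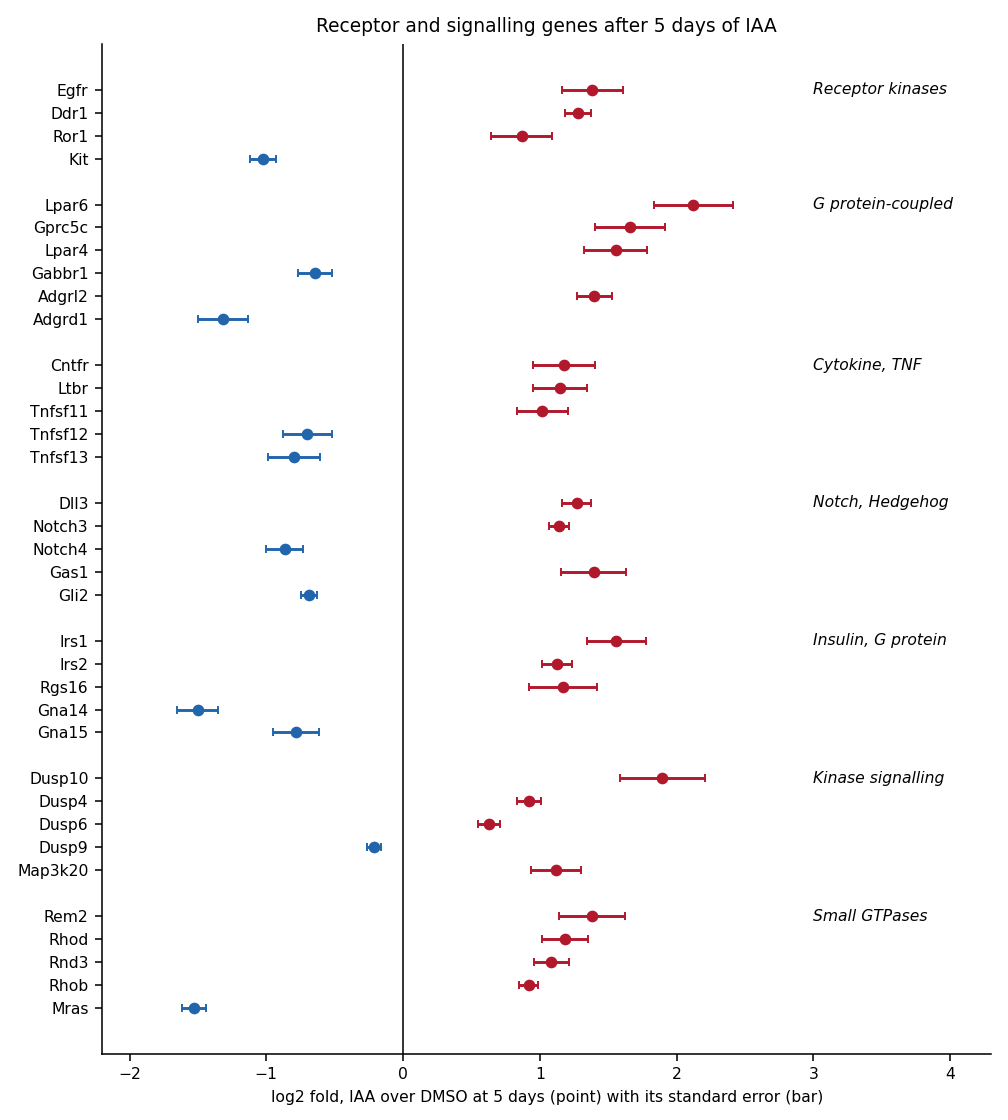
Log2 folds of IAA over DMSO at 5 days for 35 receptor and signalling genes (points) with the standard errors implied by the authors' deposited table (bars); red points are higher and blue points lower with IAA. Rises and falls stand side by side within the receptor kinase, G protein-coupled, Notch and small GTPase groups, from Mras at the lowest fold to Lpar6 at the highest.

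Transcription factor families differed in balance. Homeobox genes outside Hox, Pax and Pou had 25 rises and 4 falls (16 and 3 at the level limit) among 140 (median 0.31). En1, of the midbrain and hindbrain, rose from 1.35 CPM in DMSO to 3.34 CPM in IAA, 2.48-fold (95% interval 1.55 to 3.96). Gbx2 fell from 73.4 CPM in DMSO to 47.7 CPM in IAA, 1.54-fold lower (95% interval 1.32 to 1.79), and Zeb1, a repressor known from epithelial to mesenchymal transition, from 10.4 CPM in DMSO to 6.55 CPM in IAA, 1.59-fold lower (95% interval 1.33 to 1.90). Hox genes had 5 rises and 0 falls among 36, with a median mean level of -3.93 log2 CPM, so these calls rest on a handful of reads. Forkhead genes had 12 rises and 3 falls (7 and 3 at the level limit) among 43. Foxi3, of the placodes, rose from 1.84 CPM in DMSO to 9.05 CPM in IAA, 4.92-fold (95% interval 3.23 to 7.50), and Foxh1, a partner of Smad proteins, from 44.1 CPM in DMSO to 75.6 CPM in IAA, 1.71-fold (95% interval 1.51 to 1.94). By the authors' deposited table, limma gave adjusted p-values from 2.74e-05 for Foxh1 to 0.00775 for En1.

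Sox genes had 6 rises and 2 falls among 19. The neural factor genes Sox3 and Sox11 rose from 12.5 CPM in DMSO to 34.5 CPM in IAA, 2.75-fold (95% interval 2.25 to 3.38) and from 28.2 CPM in DMSO to 62.8 CPM in IAA, 2.23-fold (95% interval 1.94 to 2.56), and Sox15 fell from 15.9 CPM in DMSO to 9.87 CPM in IAA, 1.61-fold lower (95% interval 1.34 to 1.92). Basic helix-loop-helix genes had 20 rises and 6 falls among 91. Twist1, a mesenchymal factor, rose 2.83-fold (2.09 to 3.83), and the clock genes Arntl2 and Bhlhe41 2.43-fold (1.86 to 3.18) and 2.15-fold (1.40 to 3.30). The related genes Mitf and Tfeb, of a group that controls lysosomes and pigment cells, fell, Mitf 1.80-fold lower (1.40 to 2.33) and Tfeb 1.73-fold lower (1.27 to 2.36). Levels and folds are computed from the authors' deposited table, with limma adjusted p from 2.76e-06 for Sox11 to 0.0129 for Tfeb.

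Kruppel-like and Sp genes had 5 rises and 6 falls among 26. Klf7 rose from 10.1 CPM in DMSO to 21.5 CPM in IAA, 2.13-fold (95% interval 1.79 to 2.54), while Klf5 and Klf2 fell, Klf5 from 256 CPM in DMSO to 173 CPM in IAA, 1.48-fold lower (95% interval 1.35 to 1.61) and Klf2 from 574 CPM in DMSO to 403 CPM in IAA, 1.42-fold lower (95% interval 1.29 to 1.58). Ets genes had 3 rises and 5 falls among 26, with Ets1 1.999-fold (1.51 to 2.65) higher and Etv4, an effector of growth factor signalling, 1.31-fold lower (1.21 to 1.42). Sall2 rose from 11.96 CPM in DMSO to 55.01 CPM in IAA, 4.60-fold (95% interval 3.53 to 5.98), in a group of 46 Gata, Zic, Glis, Snail and Ikaros zinc fingers with 14 rises and 3 falls (5 and 3 at the level limit). Snai1, of epithelial to mesenchymal transition, rose 1.88-fold (1.38 to 2.55), the direction opposite to Zeb1. Prdm14 fell from 23.3 CPM in DMSO to 13.3 CPM in IAA, 1.75-fold lower (95% interval 1.42 to 2.14). The authors' deposited table gives limma adjusted p-values from 2.80e-06 for Sall2 to 0.00556 for Snai1 for them.

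Nuclear receptors had 7 rises and 4 falls among 45. Nr3c1, the glucocorticoid receptor, rose 1.58-fold (1.31 to 1.89), and Rxrg, a retinoid receptor, 2.48-fold (1.75 to 3.52). Nr5a2 fell from 31.6 CPM in DMSO to 21.6 CPM in IAA, 1.46-fold lower (95% interval 1.27 to 1.68). Stat, Irf, Nfi, Nfat and Rel genes had 5 rises and 7 falls (3 and 6 at the level limit) among 33, Nfatc2 rising 2.07-fold (1.59 to 2.70) and Stat6 falling from 42.5 CPM in DMSO to 27.3 CPM in IAA, 1.56-fold lower (95% interval 1.33 to 1.82). Tead3, which binds the Hippo pathway co-activators, rose from 3.94 CPM in DMSO to 12.04 CPM in IAA, 3.05-fold (95% interval 2.21 to 4.23), and Smad3, a transducer of activin and Nodal signals, 1.42-fold (1.24 to 1.63), in a group of 31 with 8 rises and 3 falls. Basic leucine zipper genes had 12 rises and 5 falls among 50. Within AP-1, Jun rose from 9.48 CPM in DMSO to 24.3 CPM in IAA, 2.57-fold (95% interval 2.09 to 3.15) and Fosl2 2.17-fold (1.71 to 2.75), while Fos was 1.45-fold lower (1.10 to 1.91). Adjusted p by limma, as the authors' deposited table lists it, ran from 1.78e-05 for Jun to 0.0474 for Fos.

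The Zfp, Zscan and Zkscan zinc fingers had 61 rises and 31 falls among 420 (median 0.05). These are 14.5% and 7.38%, beside 13.5% and 12.1% of all genes, so the share of rises was near that of all genes. At the level limit 56 rose and 28 fell among 355, beside 16.6% and 17.9% of all genes there. The falls include Zscan4a to Zscan4f, neighbours on chromosome 7 whose reads may be shared. Zfp608 went from 1.28 CPM in DMSO to 10.6 CPM in IAA, 8.25-fold (95% interval 5.22 to 13.1), the second-largest rise of a family member at an average of 1 log2 CPM or more. Zfp521, a co-regulator of neural differentiation, rose from 1.28 CPM in DMSO to 4.94 CPM in IAA, 3.85-fold (95% interval 2.67 to 5.54). Zscan5b fell from 4.06 CPM in DMSO to 1.49 CPM in IAA, 2.73-fold lower (95% interval 1.93 to 3.87). Zbtb genes had 7 rises and 5 falls among 42 (16.7% and 11.9%). The paralogs Zbtb7b and Zbtb7a went apart, Zbtb7b from 9.81 CPM in DMSO to 18.6 CPM in IAA, 1.89-fold (95% interval 1.63 to 2.20) and Zbtb7a from 47.04 CPM in DMSO to 33.8 CPM in IAA, 1.39-fold lower (95% interval 1.21 to 1.60). Limma's adjusted p in the authors' deposited table ranged from 1.71e-05 for Zfp608 to 0.00223 for Zbtb7a.

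**Figure D4:**
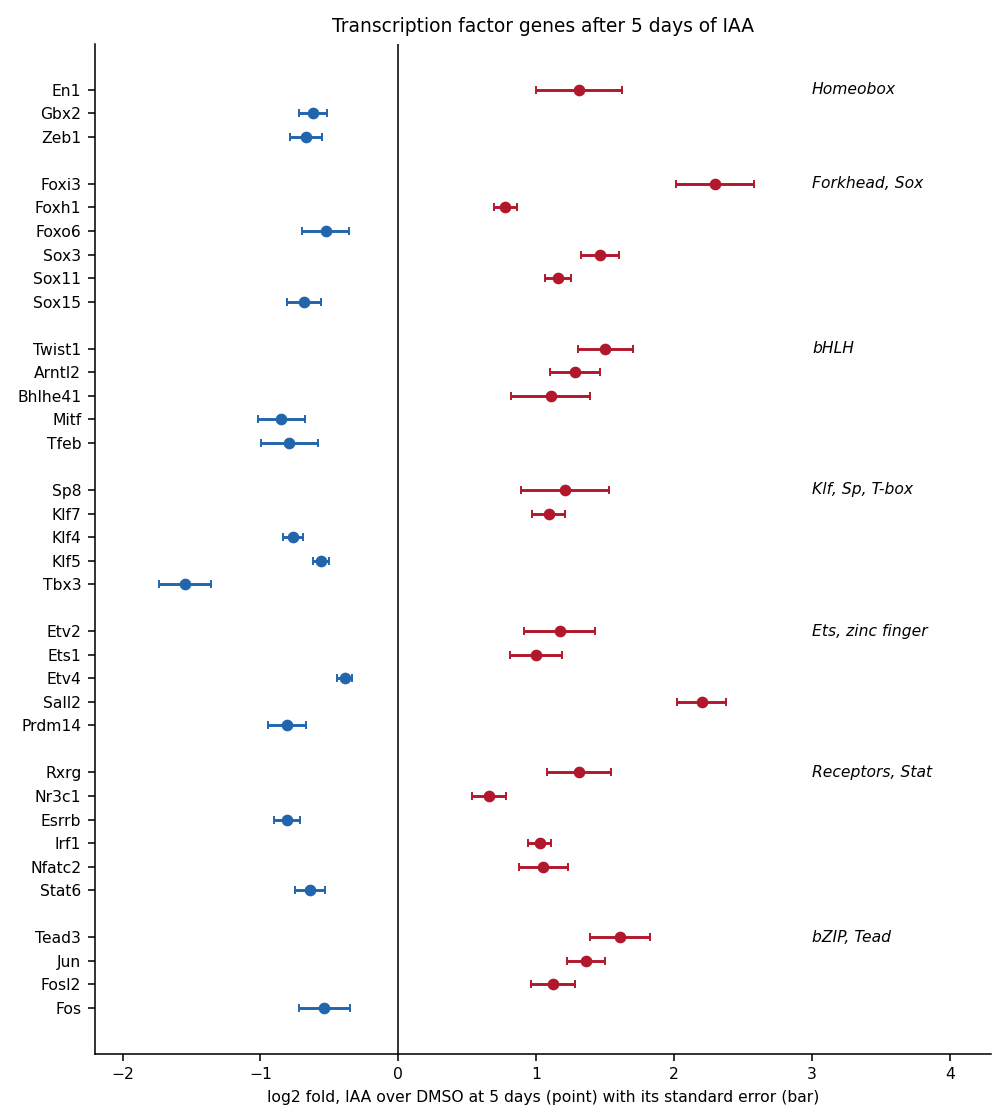
Log2 folds of IAA over DMSO at 5 days for 34 transcription factor genes (points) with the standard errors implied by the authors' deposited table (bars); red points are higher and blue points lower with IAA. Each of the 7 groups plotted has genes on both sides of 0, with Foxi3 and Sall2 farthest to the right and Tbx3 farthest to the left.

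Motor and vesicle genes held some of the clearest single changes. Kinesins had 6 rises and 6 falls among 42, 14.3% each, near the 13.5% and 12.1% of all genes. Among them Kif1a, which carries synaptic vesicle precursors, went from 17.96 CPM in DMSO to 81.4 CPM in IAA, 4.54-fold (95% interval 3.92 to 5.25). Synaptotagmins and synaptic vesicle genes had 17 rises and 2 falls among 74 (median 0.22), with Syt13 rising from 3.98 CPM in DMSO to 19.01 CPM in IAA, 4.77-fold (95% interval 3.85 to 5.91) and Syp, synaptophysin, 2.56-fold (1.85 to 3.56). Myosin heavy chains had 2 rises and 7 falls among 37. The class I myosin genes Myo1f and Myo1g fell, Myo1f from 33.1 CPM in DMSO to 11.9 CPM in IAA, 2.78-fold lower (95% interval 2.40 to 3.24) and Myo1g from 11.1 CPM in DMSO to 4.75 CPM in IAA, 2.35-fold lower (95% interval 1.85 to 2.97). Mylpf, a myosin light chain in none of the families, was 2.63-fold lower (2.29 to 3.02). Tubulins had 4 rises and 5 falls among 24, Tubb4a 2.58-fold (1.91 to 3.49) higher and Tubb2b 1.60-fold lower (1.47 to 1.73). Tubulin copies such as Tubb2a and Tubb2b are nearly identical, so their reads may be split. For these genes the authors' deposited table lists limma adjusted p-values from 5.28e-08 for Kif1a to 6.09e-04 for Syp.

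Intermediate filament genes had 6 rises and 5 falls among 51, with Nes, nestin, 3.40-fold (2.47 to 4.68) higher and Vim, vimentin, 1.82-fold lower (1.64 to 2.02). Collagens had 10 rises and 3 falls (6 and 2 at the level limit) among 44. Laminins, nidogens, fibulins and fibrillins had 13 rises and 4 falls (7 and 4 at the level limit) among 39. Thbs3, a thrombospondin, rose from 11.7 CPM in DMSO to 33.4 CPM in IAA, 2.87-fold (95% interval 2.31 to 3.56). The basement membrane genes Nid1 and Lama1, nidogen and a laminin chain, fell together, Nid1 from 102 CPM in DMSO to 48.6 CPM in IAA, 2.10-fold lower (95% interval 1.76 to 2.49) and Lama1 from 115 CPM in DMSO to 58.6 CPM in IAA, 1.96-fold lower (95% interval 1.78 to 2.16), while the basement membrane collagen gene Col4a1 rose 1.55-fold (1.28 to 1.88). Metalloproteinases had 12 rises and 7 falls (7 and 7 at the level limit) among 61, Adamts1 rising from 3.08 CPM in DMSO to 11.4 CPM in IAA, 3.71-fold (95% interval 2.70 to 5.11) and Mmp11 falling from 81.9 CPM in DMSO to 53.4 CPM in IAA, 1.53-fold lower (95% interval 1.34 to 1.76). Serpins had 4 rises and 3 falls among 26 (15.4% and 11.5%), near the 13.5% and 12.1% of all genes. The protease inhibitor gene Serpine2 rose from 5.24 CPM in DMSO to 18.5 CPM in IAA, 3.52-fold (95% interval 2.93 to 4.23). By the authors' deposited table, limma gave adjusted p-values from 7.79e-07 for Lama1 to 0.00299 for Col4a1.

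The labelled cell type was checked against its markers. Of 16 embryonic stem cell markers 4 rose and 7 fell, and their summed level was 10134 CPM in DMSO and 8920.5 in IAA. At the level limit 3 rose and 7 fell. Log2 folds in the list ran from -0.81 for Esrrb to 1.59 for Fut4, both called, Fut4 at a low mean of 0.10 log2 CPM. Pou5f1 stood at 1730.1 CPM in DMSO and 1562 in IAA and Sox2 at 612 and 531. Markers of other cells moved with both directions. Of 18 fibroblast feeder markers 3 rose (Twist1, Mmp2 and Tagln) and 1 fell (Vim), with a summed level of 921 CPM in DMSO and 842 in IAA. Of the 18, 11 averaged 1 log2 CPM or more, most of all Fn1 at 631 and 621 CPM, Vim at 229 and 126 and Tagln at 21.8 and 35.3 in DMSO and IAA. Dcn, Prrx1, Postn and S100a4 lay below 0.1 CPM in both groups. Endothelial and blood markers had 1 rise and 1 fall among 14 (summed level 106 CPM in DMSO and 93.1 in IAA) and 5 averaging 1 log2 CPM or more. Pecam1 stood at 64.8 and 53.2 CPM, Cd68, which fell, at 22.6 and 15.7, and Cd34, which rose, at 2.83 and 5.06, while Ptprc, Cdh5, Csf1r and Lyz2 lay below 0.1 CPM. Trophoblast markers had 2 and 2 among 14 (summed level 162 CPM in DMSO and 144 in IAA), 8 of them averaging 1 log2 CPM or more, led by Tfap2c at 89.5 and 61.3 CPM, with Cdx2 under 1 CPM. Neuron and glia markers had 2 and 2 among 16 (summed level 178 CPM in DMSO and 133 in IAA), 7 of them averaging 1 log2 CPM or more, led by Tubb3 at 132 and 86.8 CPM. The lower sums of the feeder, trophoblast and neuron lists go with the lower levels of Vim, Tfap2c and Tubb3, and do not stand for the other members. The median log2 folds of these lists were 0.12, 0.32 and -0.03. All levels are computed from the authors' deposited table. RNA was pooled over cells, so fewer cells of a type and less RNA per cell cannot be told apart, and the part of such cells in the families' changes was not tested.

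By chromosome, at an average of 1 log2 CPM or more, the X chromosome had 94 of 397 genes higher (23.7%) and 51 lower, beside 16.6% and 17.9% of all genes at that level, with a median log2 fold of 0.02 computed from the authors' deposited table. Of 13 mitochondrial genes 10 were lower (76.9%) and 0 higher, with a median log2 fold of -0.26 that came to 0.0018 with the trends on length and GC removed. These genes were themselves part of the fit of those trends, so a median near 0 may be partly built in. The cause of the falls was not tested.

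The same families were then read 10 days after withdrawal. At that time 0 genes passed limma's adjusted threshold of 0.05 in the authors' deposited table, where the smallest adjusted p was 0.822, and 805 had an unadjusted p under 0.05. No other tool could be run. A z test of the difference between the folds of both times was made, the comparisons sharing no library. Of 18120 genes measured at both times, 1887 (10.4%) differed at a Benjamini-Hochberg adjusted p under 0.05. The normal distribution of that test takes the standard errors as known, although they come from 3 against 3 libraries, which makes its p-values too small. With a t distribution on 14.7 to 28.6 degrees of freedom 1257 (6.94%) differed, and the p-values of single genes given here are from that form. Among the 4772 genes called at 5 days it found 1198 (25.1%). Of 388 genes called at 5 days with a fold of at least 1 on the log2 scale and an average of 1 log2 CPM or more, 270 differed by the t form, the median absolute fold being 1.28 at 5 days and 0.19 at 10 days over the 388. Those 388 were chosen by the size of their 5-day fold, so the later value is not that of an unselected set.

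All 4 called connexins and 4 of 12 called claudin family genes differed between the times by the t form, beside 25.1% of all called genes. Cldn6 had a log2 fold of 1.71 ± 0.08 at 5 days and -0.09 ± 0.13 at 10 days in the authors' deposited tables (difference adjusted p = 5.40e-08). Gja1 had 1.50 ± 0.11 and -0.07 ± 0.11 there (difference adjusted p = 3.23e-07). For Sema6a the authors' deposited tables give 3.28 ± 0.28 and 0.33 ± 0.37 (1.69e-04), and for Mras -1.53 ± 0.08 and 0.02 ± 0.14 (1.50e-06). En1 stood at 1.31 ± 0.31 at 5 days and -1.81 ± 0.82 at 10 days in the authors' deposited tables (0.0361), with few reads at either time.

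Some members had folds of nearer size at both times. Irs1 had 1.56 ± 0.21 at 5 days and 1.32 ± 0.35 at 10 days in the authors' deposited tables, and the difference missed the threshold (adjusted p = 0.7997). Gas1 had 1.39 ± 0.24 and 1.21 ± 0.52 there (0.899), and Rem2 1.38 ± 0.24 and 1.06 ± 0.60 (0.835). Thbs1, a thrombospondin, had 1.18 ± 0.24 and 0.95 ± 0.23 in the authors' deposited tables (0.762). None of the 4 passed the adjusted threshold at 10 days, and a difference that misses the threshold does not show that the folds are equal.

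**Figure D5:**
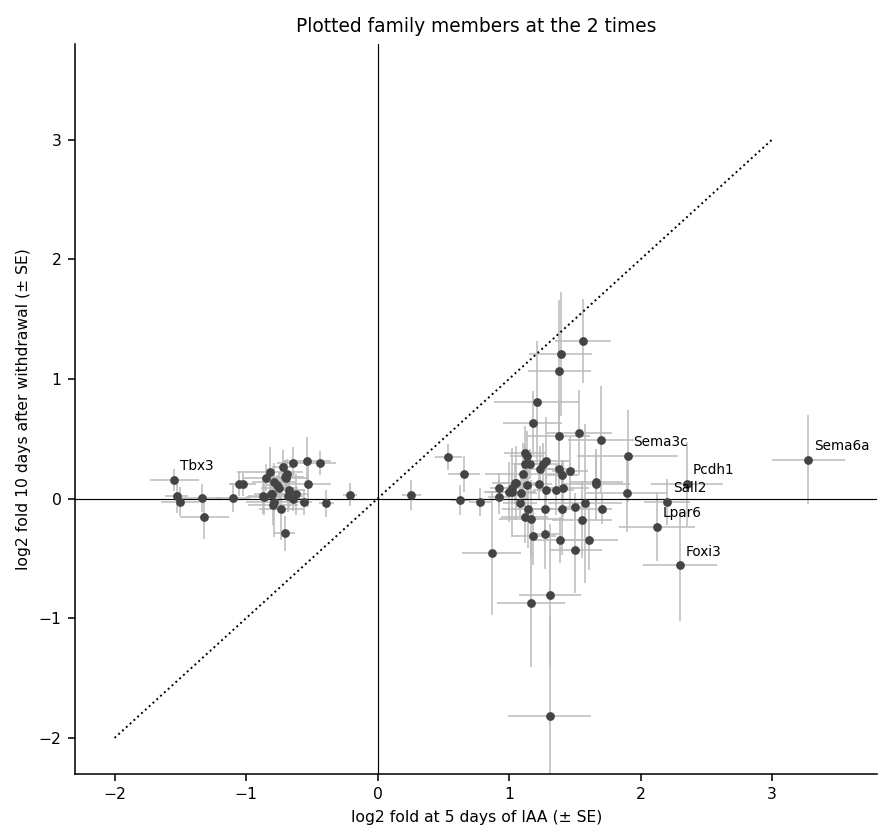
Log2 folds of the 101 plotted family members at 5 days of IAA (horizontal axis) and 10 days after withdrawal (vertical axis), with standard errors as bars; the dotted line marks equal folds. For 100 of the 101 the 10-day fold is smaller in size, and most points lie near 0 on the vertical axis; they were chosen by their 5-day call.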

How the data were processed

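Poly(A) RNA of 12 libraries was made with Trizol and TruSeq kits, per the labels. The authors deposited 1 result table per comparison, with the columns of limma's result table per the file headers: a log2 fold, a mean log2 CPM over 6 libraries, a t statistic and a log-odds score, a p-value and its adjusted value. The deposited tables also hold transcript lengths, upstream AUG counts, GC as a fraction and folding energies as a score. How reads were aligned and counted, and on which build, is not given in the sources used here. Values of single libraries were not used here, so count models were not fitted, and 0 columns of samples were left unmapped. The planned count test was replaced by the authors' limma test at an adjusted p under 0.05.

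Standard errors are the log2 fold divided by t, intervals use 13.4 degrees of freedom, and group levels in CPM are 2 to the power of the mean plus or minus 0.5 of the fold, approximate where libraries were weighted. The median standard error was 0.077 for genes averaging 3 log2 CPM or more and 0.738 at or below 0. Counts of 0 were taken to carry an offset of 0.5 reads. Symbols turned into dates (27) were restored by gene ID, and 18749 IDs had coordinates in GENCODE M21 (GRCm38). Families are textbook symbol lists, and some genes stand in more than 1. Members and lists were chosen with earlier results of these data known. Named were, per family, up to 3 rises and 3 falls with the largest folds among called members averaging 1 log2 CPM or more, and the 15 largest of each over all genes without predicted-gene names. The GABA receptor genes Gabra5 and Gabrg3 were named after their values were seen, and some genes that the rule names are not reported here. The z test of the times and its t form (Satterthwaite's degrees of freedom, from 13.4 at 5 days and 15.2 at 10 days) were adjusted over 18120 genes and tested on simulated data. Alternatives were a stricter threshold, level limits, a median fold of 0, removal of trends on length and GC (spline with 5 degrees of freedom), and, added after seeing the data, counting each gene in 1 family and the t form of the test of the times. Python 3.11.15, numpy 2.4.6, scipy 1.17.1 and pandas 2.3.3 were used.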

Additional observations from a re-analysis of the deposited data

Results flagged for a closer look

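The effect of IAA differed between the times in 1887 of 18120 genes by the z test, and in 1257 by its t form, of the difference between the folds at 5 days of IAA and 10 days after its withdrawal. Among family members the smallest adjusted p of this difference by the t form stood beside Cldn6 (5.40e-08), higher at 5 days and near 0 at 10 days.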

How the results depend on the processing

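At an adjusted p under 0.01, 1492 genes were higher and 1297 lower, and with a fold of at least 1 on the log2 scale 835 and 201. Counts under the level limits, a zero median fold and removal of the trends on length and GC stayed within 1.5 times, from 2124 to 2775 higher and from 1815 to 2341 lower, and the count of genes whose folds differ between the times stood at 1660 and 1872, but fell to 1257 with the t distribution in place of the normal. Of the 420 named genes 71 missed the threshold of 0.01, and 18 missed 0.05 with length and GC trends removed. There Rps26 changed sign to 0.18 on the log2 scale, and the cause was not tested. Of 148 counts of rises or falls per gene list, 68 moved by over 1.5 times at 0.01, 30 at an average of 1 log2 CPM or more, 19 at 0 or more, 9 with length and GC trends removed, 7 with each gene in 1 family and 4 with a zero median. The balance of rises and falls turned in protocadherins averaging 1 log2 CPM or more (1 and 3), in Zbtb genes (4 and 5) and keratins (4 and 5) at 0.01, and in phospholipase C and diacylglycerol kinases. No paired analysis was possible because the deposited tables hold no values of single libraries, and for the same reason leaving out each replicate, other normalizations and other count tools were not run. Rare transcripts limit the depth: folds of genes averaging 0 log2 CPM or less had a median standard error of 0.738.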

Other observations

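Among the 15 largest rises and 15 largest falls of the whole table were genes outside the families above, with levels and folds computed from the authors' deposited table. Trim67, a ubiquitin ligase gene known from neurons, rose from 6.99 CPM in DMSO to 34.5 CPM in IAA, 4.94-fold (95% interval 4.07 to 6.01). Parp10, a mono-ADP-ribosyltransferase gene, rose from 1.86 CPM in DMSO to 9.19 CPM in IAA, 4.95-fold (95% interval 3.60 to 6.82), and Car4, a membrane-anchored carbonic anhydrase, from 4.21 CPM in DMSO to 31.8 CPM in IAA, 7.56-fold (95% interval 5.78 to 9.89). Among the falls Inhbb, a subunit of activins and inhibins, went from 70.9 CPM in DMSO to 19.2 CPM in IAA, 3.70-fold lower (95% interval 3.01 to 4.54), Ceacam1, a cell adhesion molecule, from 6.49 CPM in DMSO to 2.35 CPM in IAA, 2.76-fold lower (95% interval 2.08 to 3.66), and Stra8, a retinoic acid-responsive gene of germ cells entering meiosis, from 9.87 CPM in DMSO to 3.67 CPM in IAA, 2.69-fold lower (95% interval 2.03 to 3.55). Adjusted p by limma, as the authors' deposited table lists it, ran from 2.25e-07 for Trim67 to 1.18e-04 for Stra8.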
